A study of Mus musculus with 60 samples.

Results

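The genes described here are 62 enzymes of phase II conjugation in the mouse, the glutathione S-transferases (Gst, with the microsomal Mgst), the UDP-glucuronosyltransferases (Ugt) and the cytosolic sulfotransferases (Sult). They were taken by name, as every symbol of the cell table or the liver table that begins with Gsta, Gstk, Gstm, Gsto, Gstp, Gstt, Mgst, Ugt or Sult followed by a digit, and the rule uses names alone. The 62 genes out of 19456 symbols comprised 23 Gst and Mgst, 20 Ugt and 19 Sult. All 62 were among the 19355 symbols measured in cells and 59 among the 17473 measured in liver. Values are FPKM, the number of sequenced fragments per kilobase of transcript, scaled to the mapped reads of the sample, so levels of different genes are compared per length. A gene was tested where at least 3 samples of a table reached 1 FPKM, which held for 47 members in the cell table (22 Gst, 16 Ugt and 9 Sult) and for 43 in the liver table (20 Gst, 15 Ugt and 8 Sult). Members that were high in 1 group alone passed this filter through that group, so counts over those that passed are given as a description.

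Phase II enzymes attach a water-soluble group to drugs, hormones, bile pigments and reactive metabolites, so that the products can leave the cell in bile or urine. Gst enzymes join glutathione to electrophiles, Ugt enzymes of the endoplasmic reticulum transfer a sugar acid from UDP-glucuronic acid, and Sult enzymes transfer a sulfate from the donor PAPS. The hepatocyte is the main site of all 3 reactions, and loss of their transcripts is a familiar feature of hepatocytes kept in culture.

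The labels give the genotype WT and the strain C57BL/6 for every group, and the study's methods give adult C57BL/6J mice for the hepatocyte isolation and the hepatectomy. The study describes single-cell clones grown from hepatocytes of Albumin-Cre and R26R-tdTomato mice, and the labels do not say whether clone-1 here is one of them. In the cell table, freshly isolated hepatocytes were compared with hepatocytes turned into IL6-induced hepatic progenitor cells at day 3 and day 14 of the first culture (IL6-iHPCs-D3 (P0) and IL6-iHPCs-D14 (P0)). It also held passaged IL6-iHPCs of mouse-1 at passage 10 and passage 35, mouse-2 at passage 10 and clone-1, a line grown from 1 cell, at passage 20, and the IL6-induced mature hepatocytes (IL6-iMHs) differentiated from each of these 4 lines, where mouse-1 counts as a separate line at each passage. By the study's methods IL6-iHPCs grew with IL6, EGF, HGF and dexamethasone. The maturation medium of IL6-iMHs, used for 7 days, lists none of the first 3, more dexamethasone, and oncostatin M. Effects of the medium and of differentiation thus cannot be told apart. In the liver table, normal liver was compared with the liver left after 2/3 partial hepatectomy, taken after 6 h (PHX-6h), after 24 h (PHX-24h) and on day 3 (PHX-D3), day 7 (PHX-D7) and day 14 (PHX-D14). A separate day 7 table held primary hepatocytes, IL6-iHPCs-D7 (P0) and HCM-Hepa-D7 (P0), a culture without IL6, with 3 samples each, and listed 4 members, which enter no comparison here. Each of the 11 cell groups and 6 liver groups had 3 samples. The cell samples are technical repeats by the study's description, so p-values in the cell table measure only the spread between such repeats, and 2 mice and 1 clone stand behind the passaged cells.

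Reads recovered from the FPKM steps numbered 49299079 to 88877755 per cell sample and 46887831 to 73982051 per liver sample. The 10 hepatocyte markers summed to 77715 to 83862 FPKM in hepatocytes and 60408 to 82471 in IL6-iMHs, against 647 to 757 in IL6-iHPCs-D3 (P0). The 10 cholangiocyte and progenitor markers summed to 4.11 to 4.41 in hepatocytes, 2984 to 11091 in passaged IL6-iHPCs and still 278 to 1566 in IL6-iMHs. Kupffer cell markers summed to 20.8 to 24.7 in hepatocytes, 17.8 to 21.3 in IL6-iMHs of mouse-1 (P35) and at most 3.51 in the other IL6-iMHs. Red blood cell markers reached 107 to 124 in hepatocytes and at most 1.03 in any cultured sample. The libraries labelled clone-1 did not match each other, since 4 Y-linked genes held 6575 to 9095 reads in the IL6-iHPCs and 0 in the IL6-iMHs of that name, while the other passaged IL6-iHPCs held 0 to 2 and the other IL6-iMHs 0. Hepatocytes held 994 to 1550 such reads and the day 3 and day 14 cultures 9185 to 18444, and the part of the animals' sex in the results was not tested. Most counts and named log2 differences of the members that use them are therefore given with and without clone-1. Values after quantile normalization or voom, the Ugt1a7c difference in passaged cells, and the fold bounds of Ugt3a1, Sult5a1 and Sult1e1 include clone-1 only. In the liver, PHX-D3 replicate 2 stood apart, its members lying at a median absolute log2 difference of 1.41 from the other replicates of its group, against 0.54 and 0.85 for replicates 1 and 3.

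Many members lie in groups of neighbours in GRCm38.p6, while others such as Gsta3, Mgst1 and Sult2b1 lie apart, and all 62 were placed on that annotation. Of the families, 8 Ugt1a genes share chr1:88055411-88220002, where the annotated transcripts use common last exons, 7 Gstm genes lie at chr3:107895854-108045179, and 9 Ugt2 genes lie with Sult1b1, Sult1d1 and Sult1e1 at chr5:86889770-87591611. A further 6 Sult2a genes lie at chr7:13623967-14493023 and 4 Gstt genes at chr10:75774117-75837419. Close copies can divide reads between them: Ugt1a6a and Ugt1a6b were identical at 98.4% of coding bases, Gstp1 and Gstp2 at 98.1%, Gsta1 and Gsta2 at 97.6%, Ugt2b38 and Ugt2b5 at 97.0%, and Ugt1a9 and Ugt1a10 at 95.3%. The values of these 10 genes are uncertain to that extent. Reads in the common last exons can also be shared among all 8 Ugt1a genes, so those of Ugt1a1, Ugt1a5 and Ugt1a7c are uncertain too. Among the pairs just below these were Ugt2b37 and Ugt2b5 (94.7%) and Ugt3a1 and Ugt3a2 (93.2%).

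Letters of binding motifs were sought, on both strands, in the 250 bases before each annotated start, for the antioxidant response element read by NRF2 (TGACNNNGC) and for the STAT element used downstream of IL6 (TTCNNNGAA). Of the 54 members with a promoter in the RefSeq table, 4 held the antioxidant element (7.41%, against 11.5% of all 27025 genes and 10.2% of the 32851 promoters of that length) and 4 the STAT element (7.41%, against 8.13% of genes and 7.02% of promoters). The letters CAAAGTCCA, read by HNF4, and the palindrome of HNF1 were found in 0 members and in 0.384% and 0.00913% of promoters. The windows of Gsta3 (chr1:21240335-21240584), Gstm5 (chr3:107895604-107895853) and Mgst1 (chr6:138140277-138140526) are shown because the antioxidant element is the classical switch of Gst genes, and that of Gsta1 (chr9:78230419-78230668) because it holds the STAT letters. All 4 lie on the plus strand of GRCm38.p6 and are written 5′ to 3′ with the match in capitals.
Gsta3: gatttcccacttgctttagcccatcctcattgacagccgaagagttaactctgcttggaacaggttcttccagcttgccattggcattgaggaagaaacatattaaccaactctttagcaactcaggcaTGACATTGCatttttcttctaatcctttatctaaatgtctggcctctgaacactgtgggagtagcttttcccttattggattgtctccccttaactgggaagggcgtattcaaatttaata
Gstm5: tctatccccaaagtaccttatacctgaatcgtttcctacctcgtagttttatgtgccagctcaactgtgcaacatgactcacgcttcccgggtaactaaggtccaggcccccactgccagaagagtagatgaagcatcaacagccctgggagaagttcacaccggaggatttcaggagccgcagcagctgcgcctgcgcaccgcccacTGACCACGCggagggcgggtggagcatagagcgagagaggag
Mgst1: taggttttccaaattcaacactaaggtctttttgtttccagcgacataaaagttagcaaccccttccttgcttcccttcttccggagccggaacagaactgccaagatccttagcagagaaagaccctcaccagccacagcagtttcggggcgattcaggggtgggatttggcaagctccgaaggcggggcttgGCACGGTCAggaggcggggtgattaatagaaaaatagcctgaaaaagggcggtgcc
Gsta1: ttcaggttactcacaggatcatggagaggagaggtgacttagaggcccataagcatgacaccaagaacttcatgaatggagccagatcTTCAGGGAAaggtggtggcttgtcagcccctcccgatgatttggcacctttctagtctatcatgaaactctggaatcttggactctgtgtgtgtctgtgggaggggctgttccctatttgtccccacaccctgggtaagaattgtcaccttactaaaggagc
In Mgst1 the element reads on the minus strand. Of the 4 genes shown, Gsta3 and Mgst1 were lower and Gstm5 and Gsta1 not called in IL6-iHPCs-D3 (P0). Of the members with these letters not shown, Gstm7 (antioxidant element), Gstm6 and Ugt1a6a (both STAT) were lower too. Sult3a1 (STAT) was not tested in cells. A match is a description of the window only.

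In freshly isolated hepatocytes the Gst family led by far. Its summed level was 8791 ± 109 FPKM (SD, n = 3), against 1487 ± 102 for Ugt and 304 ± 10.3 for Sult, and the members together took 1.33% ± 0.026 of all reads. The highest single member was Mgst1, a membrane-bound transferase of the endoplasmic reticulum and outer mitochondrial membrane, at 3055, 3043 and 3680 FPKM. It was followed by Gstp1, the pi-class enzyme, at 2729, 2479 and 2323 FPKM. The 2 ranges did not overlap.

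Ugt2b5, Ugt2b36 and Ugt2b1, which glucuronidate steroids and drugs, were the highest Ugt members, and the Sult family rested on 2 genes. Ugt2b5 read 287, 308 and 338 FPKM and Ugt2b36 235, 246 and 267. Sult1a1, the phenol sulfotransferase, read 124, 127 and 139 FPKM, and Sult2a8, a sulfotransferase of bile acids, 115, 129 and 114. Sult1a1 and Sult2a8 overlapped. Of the 15 members not tested in the cell table, 1 (Sult2a5) had no read in any sample, and the others (Gstt4, Sult1c1, Sult2a1, Sult2a2, Sult2a3, Sult2a7, Sult3a1, Sult3a2, Sult6b1, Sult6b2, Ugt1a10, Ugt1a2, Ugt2a1 and Ugt8a) stayed at or below 1.4 FPKM in every sample, the highest being Sult2a7 in hepatocytes.

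**Figure D1:**
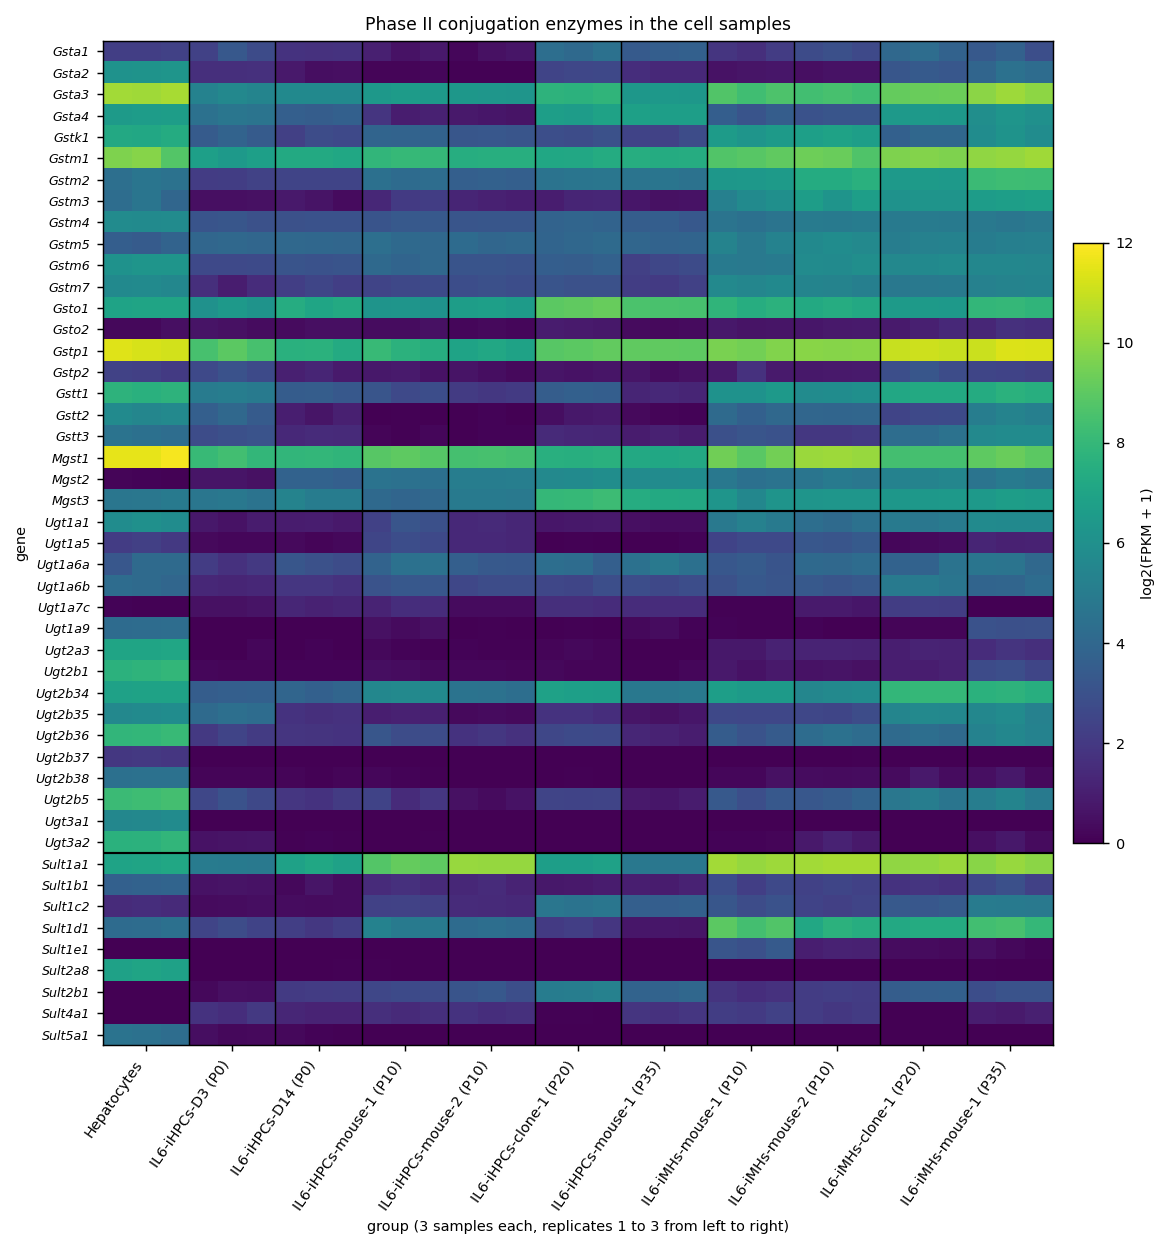
Level of each of the 47 tested members (rows, by family) in the 33 cell samples (columns, 3 per group), with colour as log2(FPKM + 1). Most rows are bright in hepatocytes, dark in IL6-iHPCs and bright again in IL6-iMHs, while Ugt2a3, Ugt2b1, Ugt3a1, Ugt3a2, Sult2a8 and Sult5a1 stay dark in IL6-iMHs.

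By day 3 of culture with IL6, conjugation transcripts of every family had fallen. In IL6-iHPCs-D3 (P0), 36 of the 47 tested members were lower than in hepatocytes (15 of 22 Gst, 15 of 16 Ugt and 6 of 9 Sult) and 1 was higher, where 12.1% of all 12328 genes tested were lower, 53.9% higher and 66.0% changed in all. A gene is called changed here at an adjusted p-value under 0.05 (limma, Benjamini-Hochberg over all genes tested) and at least 2-fold, and log2 differences are on the log2(FPKM + 1) scale, which understates the change of low genes. The median log2 difference of the members was -2.66, against 1.14 for all genes. With the libraries quantile normalized the median of all genes was 0.11, and 36 members were still lower and 1 higher. Of all genes 22.3% were then lower and 25.8% higher.

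Among the members lower at day 3 were Ugt and Sult genes typical of the mature liver. Ugt2b1 was at 205, 220 and 249 FPKM in hepatocytes and at 0.145, 0.116 and 0.138 in IL6-iHPCs-D3 (P0). Its log2 difference was -7.63 ± 0.08 (SE; limma adjusted p = 1.5e-34), and no sample of either group came near the other. Ugt3a2, which transfers other sugars than glucuronic acid, went from 199, 210 and 239 FPKM to 0.516, 0.573 and 0.627, a log2 difference of -7.10 ± 0.08 (limma adjusted p = 3.5e-34). Sult2a8 was left with 2 reads in each day 3 sample against 13689 to 21239 in hepatocytes, with a log2 difference of -6.89 ± 0.04 (limma adjusted p = 1e-40). Sult5a1 fell from 18.3 to 22.4 FPKM down to 0.212 to 0.363 (log2 difference -4.09 ± 0.05, limma adjusted p = 1.9e-32).

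Among Gst genes, Gsta3, the alpha-class enzyme that detoxifies aflatoxin epoxide in mice, had the largest log2 difference on the log2(FPKM + 1) scale at day 3. It read 1301, 1262 and 1358 FPKM in hepatocytes and 38.9, 47.9 and 41.3 in IL6-iHPCs-D3 (P0), a log2 difference of -4.91 ± 0.09 (limma adjusted p = 1.4e-28). Gsta2 fell by 4.54 ± 0.10 on the log2 scale, from 67.5, 70.8 and 75.1 FPKM to 2.07, 2.07 and 2.16 (limma adjusted p = 8.9e-27). The groups did not overlap for either gene. The Gst members not called at day 3 were Gsta1, Gstm5, Gsto1, Gsto2, Gstp2, Mgst2 and Mgst3, with log2 differences from -0.79 to 0.55.

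The 1 member called higher at day 3 was Sult4a1, a sulfotransferase best known from the brain. It had 0 reads in all 3 hepatocyte samples and 324 to 431 in IL6-iHPCs-D3 (P0), at 2.34, 1.95 and 2.95 FPKM, which is at least 130-fold higher with a floor of 3 reads per library (limma adjusted p = 2.4e-18). At day 14 it read 1.48, 1.26 and 1.26 FPKM. By voom on the recovered reads 4 members were higher at day 3, beside 62.2% of all genes. The members added were Mgst2, Sult2b1 and Ugt1a7c (log2 differences of reads 2.62 ± 0.59, 4.95 ± 0.82 and 2.83 ± 0.39).

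At day 14 most members were lower than in hepatocytes and 4 were higher. Of the 47 tested members 35 were lower in IL6-iHPCs-D14 (P0) than in hepatocytes (16 Gst, 14 Ugt and 5 Sult) and the higher ones were Mgst2, Ugt1a7c, Sult2b1 and Sult4a1, with 12.9% of all genes lower, 50.0% higher and 62.9% changed. Members had a median log2 difference of -3.06 and all genes one of 1.0. Mgst2, which can make leukotriene C4, rose from 0.129, 0.0751 and 0.0516 FPKM in hepatocytes to 12.8, 12.6 and 11.2 at day 14 (log2 difference 3.60 ± 0.08, limma adjusted p = 4.2e-26). It had stood at 0.462 to 0.623 at day 3.

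Sult2b1, which sulfates cholesterol and related sterols, followed the same order. It had 0 to 2 reads in hepatocytes, 15 to 33 at day 3 and 211 to 243 at day 14, where it read 3.16, 3.38 and 3.50 FPKM (log2 difference from hepatocytes 2.11 ± 0.09, limma adjusted p = 4.6e-19). Ugt1a7c reached 1.45, 1.23 and 1.33 FPKM from 0.0509 to 0.0983 (log2 difference 1.13 ± 0.06, limma adjusted p = 1.4e-16). For the low Ugt1a7c and Sult4a1 the call did not survive quantile normalization, with log2 differences of 0.25 and 0.77 at day 14. The samples of day 14 lay above every hepatocyte sample for all 4 genes.

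Among those that fell, Gsta2 and Gstt2 had the largest log2 differences of the Gst family at day 14. Gstt2, a theta-class enzyme, went from 52.2, 44.9 and 49.3 FPKM to 1.02, 0.578 and 1.07, after 11.3, 15.8 and 9.97 at day 3 (day 14 log2 difference -4.73 ± 0.13, limma adjusted p = 2.7e-24). Gsta2 reached 0.381 to 0.781 FPKM (-5.58 ± 0.10, limma adjusted p = 5.5e-29). Ugt2b1 (-7.69 ± 0.08), Ugt3a2 (-7.68 ± 0.08), Sult2a8 (-6.89 ± 0.04) and Sult5a1 (-4.29 ± 0.05) remained low, the last of these with at most 11 reads in any sample. Sult1a1, in contrast, read 115, 141 and 116 FPKM at day 14, overlapping the 124 to 139 of hepatocytes (-0.07 ± 0.09, limma adjusted p = 0.46), after 28.2 to 30.8 at day 3.

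In the passaged IL6-iHPCs, averaged over the 4 lines, 33 of the 47 tested members were lower than in hepatocytes (15 Gst, 14 Ugt and 4 Sult) and 6 were higher (2 Gst, 1 Ugt and 3 Sult), beside 11.3% and 48.1% of all genes, 59.4% being changed. The members' median was -2.73 on the log2 scale, against 0.93 for all genes. Without clone-1, 35 members were called, 31 lower and 4 higher, beside 58.5% of all genes changed. Mgst3, Sult1c2, Sult1d1 and Ugt1a5 were no longer among the members called.

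Mgst2 and Sult2b1 climbed further in the passaged cells. Mgst2 read 20.8 to 22.5 FPKM in mouse-1 (P10), 32.5 to 33.7 in mouse-2 (P10), 49.6 to 58.1 in clone-1 (P20) and 54.4 to 56.8 in mouse-1 (P35), a log2 difference from hepatocytes of 5.17 ± 0.07 (limma adjusted p = 9.8e-33). Sult2b1 read 4.83 to 5.60, 6.31 to 8.86, 31.5 to 37.9 and 13.0 to 15.2 FPKM in the same order (3.68 ± 0.07, limma adjusted p = 9.4e-28). Without clone-1 the log2 differences were 5.02 and 3.20. All passaged samples exceeded all hepatocyte samples for both genes.

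Mgst3 and Sult1c2 were uneven among the lines. Mgst3 stood at 14.0 to 16.3 FPKM in mouse-1 (P10), below the 25.3 to 29.2 of hepatocytes, and at 255 to 301 in clone-1 (P20) and 153 to 172 in mouse-1 (P35). Its mean log2 difference was 1.3 ± 0.09 (limma adjusted p = 5.2e-14) with all 4 lines, 0.63 without clone-1 and 0.93 after quantile normalization. Sult1c2 differed by 1.51 ± 0.06 (limma adjusted p = 2.5e-20) with all lines, by 0.96 without clone-1 and by 0.21 after quantile normalization, and Ugt1a7c by 1.12 ± 0.05 (limma adjusted p = 3.9e-19) and by 0.51 after quantile normalization. Samples of the lines therefore overlapped hepatocytes for Mgst3 and Sult1c2.

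The theta class, Ugt2b1, the Ugt3a genes and Sult2a8 were low or near zero in passaged cells. Gstt1, which acts on small halogenated compounds, read 216, 197 and 215 FPKM in hepatocytes and 1.34 to 11.9 in the 12 passaged samples (log2 difference -5.27 ± 0.08, limma adjusted p = 3.3e-31), and Gstt2 0 to 0.797 (-5.39 ± 0.10, limma adjusted p = 2.1e-28). Ugt3a1 had no read in any passaged sample against 5713 to 6804 in hepatocytes, at least 1857-fold lower, and Sult5a1 had none against 1150 to 1859, at least 467-fold lower. Ugt2b1 (-7.60 ± 0.06, limma adjusted p = 1.9e-37), Ugt3a2 (-7.75 ± 0.06, limma adjusted p = 5.6e-38) and Sult2a8 (-6.91 ± 0.03, limma adjusted p = 1.3e-43) were also lower. Without clone-1 the log2 differences were -5.65 for Gstt1, -5.54 for Gstt2, -7.59 for Ugt2b1, -7.75 for Ugt3a2 and -6.90 for Sult2a8.

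A few enzymes stayed well above zero in passaged cells. Ugt2b34 fell by 1.47 ± 0.06 (limma adjusted p = 1.7e-19) yet held 19.0 to 116 FPKM against 114 to 121 in hepatocytes, and Ugt1a6a, a phenol glucuronosyltransferase, 8.76 to 27.8 against 8.65 to 16.9, with a log2 difference of 0.23 ± 0.18 (limma adjusted p = 0.23). Without clone-1 these differences were -1.93 for Ugt2b34 and 0.23 for Ugt1a6a. Sult1a1 ranged from 26.0 to 26.8 FPKM in mouse-1 (P35) to 1081 to 1125 in mouse-2 (P10). Gsto1, which reduces dehydroascorbate, ranged from 67.9 to 75.3 in mouse-1 (P10) to 507 to 596 in clone-1 (P20). Against hepatocytes, Sult1a1 was higher in both P10 lines and lower in the other two, while Gsto1 had the opposite order.

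Conjugation transcripts were mostly higher in IL6-iMHs, in their maturation medium, than in passaged IL6-iHPCs. The mean of the 4 IL6-iMH groups was set against the mean of the 4 passaged IL6-iHPC groups of the same line names. Of the 47 tested members 27 were higher (16 Gst, 7 Ugt and 4 Sult) and 1 was lower, beside 6.68% and 21.4% of all genes, 28.1% being changed. A member called on these means can be under 2-fold in a single line, as Sult1a1 was in mouse-2 (P10), at 0.28. The members' median was 1.15 on the log2 scale, against -0.40 for all genes. With quantile normalization it was 1.47 against -0.08, with 30 members higher and 0 lower, beside 9.61% and 8.89% of all genes. Without clone-1, 28 members were higher and 0 lower, beside 33.2% of all genes changed. Gstp2 and Sult2b1 dropped out and Gsta1 and Gsta4 came in. With all 4 lines, voom on the recovered reads gave 36 higher and 2 lower, beside 10.1% and 34.0% of all genes. Voom added Gsta1, Gsta4, Gsto2, Ugt1a5, Ugt1a6b, Ugt1a9, Ugt2b37, Ugt2b38 and Ugt3a2 as higher and Ugt1a7c as lower, so the Ugt count depends on the scale.

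Sult1d1, which sulfates catecholamines, and Gstm3 had the largest log2 differences on the log2(FPKM + 1) scale. Sult1d1 went from 28.5 to 38.8 FPKM in mouse-1 (P10) cells to 496, 340 and 433 after differentiation, and from 0.620 to 0.658 in mouse-1 (P35) cells to 329, 359 and 251. Over the 4 lines its log2 difference was 4.93 ± 0.07 (limma adjusted p = 9.5e-31), and each line's IL6-iMHs lay above each of its IL6-iHPCs. Gstm3 rose from 0.437 to 3.48 FPKM in IL6-iHPCs to 36.8 to 112 in IL6-iMHs (5.08 ± 0.09, limma adjusted p = 2.5e-28). Without clone-1 the 2 differences were 4.82 and 5.10.

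Gstt1, Ugt1a1, Ugt2b35 and Sult1a1 were also higher after differentiation. Gstt1 rose to 53.6 to 199 FPKM (4.27 ± 0.05, limma adjusted p = 2.7e-33). Ugt1a1, the enzyme that conjugates bilirubin, went from 0.317 to 7.92 FPKM in IL6-iHPCs to 16.9 to 52.2 in IL6-iMHs (3.65 ± 0.07, limma adjusted p = 2.4e-28). Sult1a1 rose by 2.5 ± 0.04 (limma adjusted p = 1.7e-28), but its mean in passaged IL6-iHPCs, 439 FPKM, was already above the 130 of hepatocytes. Ugt2b35 rose by 3.16 ± 0.05 (limma adjusted p = 3.1e-30), and its level was uneven, at 4.76 to 5.94 FPKM in IL6-iMHs of mouse-1 (P10) and mouse-2 (P10) and 38.0 to 53.6 in those of clone-1 (P20) and mouse-1 (P35). The IL6-iMHs of mouse-1 (P10) and mouse-2 (P10) held 962 to 1513 reads of this gene, against 10709 to 13797 in hepatocytes. Without clone-1 the log2 differences were 4.47 for Gstt1, 3.48 for Ugt1a1, 2.24 for Sult1a1 and 2.91 for Ugt2b35.

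Sult1e1, the estrogen sulfotransferase, was seen only after differentiation among these 4 lines. It had no read in the 12 passaged IL6-iHPC samples and 6 to 882 in IL6-iMHs, at least 61.3-fold higher, and most of it came from mouse-1 (P10) at 7.88, 6.53 and 9.65 FPKM. The 1 member called lower on the log2(FPKM + 1) scale was Sult2b1 (-1.08 ± 0.05, limma adjusted p = 2.9e-19), at 1.93 to 2.47 FPKM in mouse-1 (P10) and 10.8 to 12 in clone-1 (P20). Its difference was -0.94 without clone-1 and -0.53 with quantile normalization, both short of 2-fold. By voom on the recovered reads Ugt1a7c was lower as well (log2 difference of reads -2.43 ± 0.18).

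**Figure D2:**
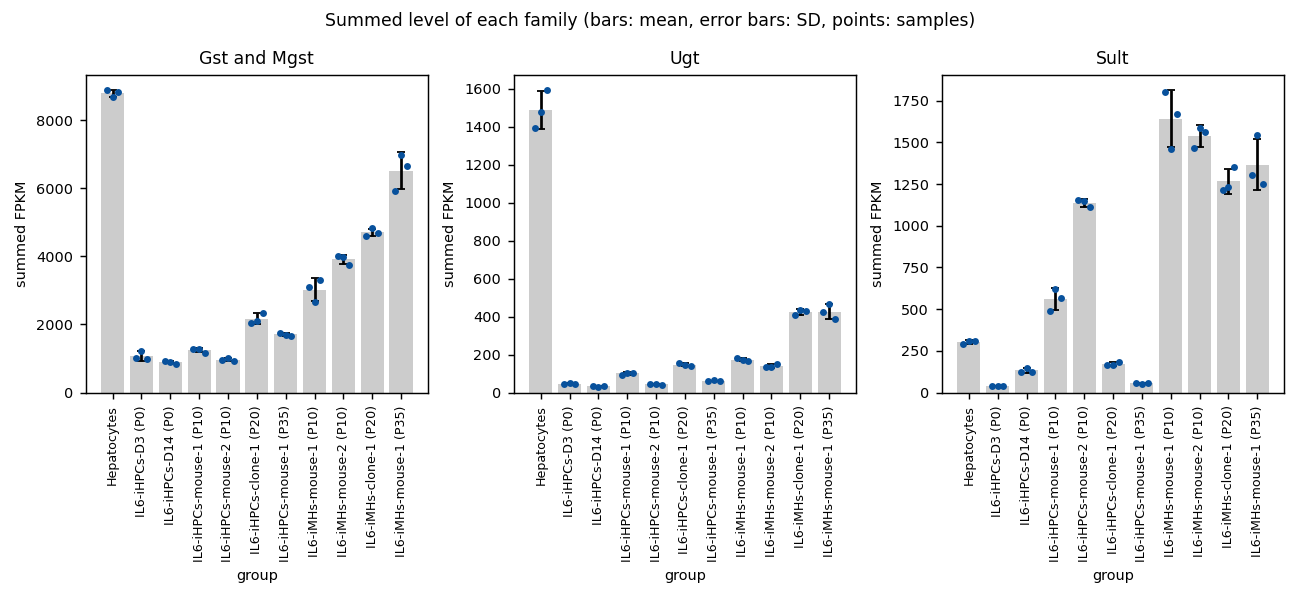
Summed FPKM of the Gst and Mgst, Ugt and Sult families in the 11 cell groups (bars, mean; error bars, SD; points, 3 samples per group). Gst sums reach 3019 to 6514 FPKM in IL6-iMHs against 8791 in hepatocytes, Ugt sums 141 to 426 against 1487, and Sult sums 1266 to 1643 against 304.

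Set against fresh hepatocytes, the 3 families of IL6-iMHs came back to different extents. Of the 47 tested members, 11 were higher in IL6-iMHs (5 Gst, 0 Ugt and 6 Sult) and 20 lower (7 Gst, 10 Ugt and 3 Sult), with 24.8% of all genes higher, 7.79% lower and 32.6% changed. The members' median was -0.71 on the log2 scale and that of all genes 0.46. The Sult members' median was 1.3 on the log2(FPKM + 1) scale, which understates the change of the genes that had no read in hepatocytes. By sums, Gst in IL6-iMHs ran from 3019 ± 335 FPKM in mouse-1 (P10) to 6514 ± 543 in mouse-1 (P35), Ugt from 141 ± 10 in mouse-2 (P10) to 426 ± 37.6 in mouse-1 (P35), and Sult from 1266 ± 73.7 in clone-1 (P20) to 1643 ± 173 in mouse-1 (P10) (SD, n = 3). Every Ugt sum in IL6-iMHs lay below that of hepatocytes and every Sult sum above it. Without clone-1 the counts were again 11 higher and 20 lower, beside 29.2% of all genes changed. Gstk1 was replaced by Gstp1 among the members called.

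The Sult excess came from Sult1a1 and Sult1d1. Sult1a1 read 932 to 1371 FPKM in the 12 IL6-iMH samples against 124 to 139 in hepatocytes (3.14 ± 0.07, limma adjusted p = 3.6e-26), and Sult1d1 144 to 496 against 17.2 to 20.5 (3.66 ± 0.11, limma adjusted p = 9.8e-23). Their line means were 779% to 1037% and 870% to 2284% of the hepatocyte mean. No IL6-iMH sample of either gene overlapped hepatocytes. In passaged IL6-iHPCs, Sult1a1 was already above hepatocytes in mouse-1 (P10) and mouse-2 (P10), and Sult1d1 in mouse-1 (P10). Sult1a1 was below hepatocytes in the IL6-iHPCs of clone-1 (P20) and mouse-1 (P35). Sult2a8 (-6.90 ± 0.03, limma adjusted p = 1.3e-43) and Sult5a1 (-4.43 ± 0.04, limma adjusted p = 5.5e-36) did not return, with at most 6 and 2 reads per sample. Without clone-1 the differences were 3.17 for Sult1a1, 3.86 for Sult1d1, -6.90 for Sult2a8 and -4.42 for Sult5a1.

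In the Gst family, Gstm2 overshot and Mgst1 lagged. Gstm2, a mu-class enzyme, read 20.1, 24.2 and 22.2 FPKM in hepatocytes and 81.3 to 311 in IL6-iMHs (2.62 ± 0.06, limma adjusted p = 2.5e-26), and Mgst2 read 20.4 to 44.3 against 0.0516 to 0.129 (4.77 ± 0.07, limma adjusted p = 1.3e-31). Mgst1 reached 336 to 1211 FPKM against 3043 to 3680 (-2.42 ± 0.08, limma adjusted p = 1.9e-21), and Gsta2 0.388 to 21.4 against 67.5 to 75.1 (-4.0 ± 0.08, limma adjusted p = 7e-28). The samples of these 4 genes did not overlap between the groups. Gstm1 did overlap, at 416 to 1239 FPKM in IL6-iMHs and 444 to 911 in hepatocytes (0.03 ± 0.13, limma adjusted p = 0.85). Without clone-1 the log2 differences were 2.84 for Gstm2, 4.59 for Mgst2, -2.15 for Mgst1, -4.36 for Gsta2 and -0.06 for Gstm1.

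Most Ugt genes of hepatocytes were absent or low in IL6-iMHs. Ugt2b1 read 0.466 to 6.33 FPKM against 205 to 249 (-6.55 ± 0.06, limma adjusted p = 1e-35), and Ugt3a2 0 to 1.2 against 199 to 239 (-7.35 ± 0.06, limma adjusted p = 2.9e-37). Ugt2b34, at 44.8 to 258 FPKM against 114 to 121, was the highest Ugt of IL6-iMHs and was not called (0.07 ± 0.06, limma adjusted p = 0.29), and Ugt1a1 at 16.9 to 52.2 against 56.2 to 63.2 was lower by less than 2-fold (-0.91 ± 0.10, limma adjusted p = 3.6e-09). Ugt1a6a, at 7.72 to 24.0 FPKM against 8.65 to 16.9 (0.12 ± 0.18), and Ugt1a6b, at 6.79 to 29.2 against 14.5 to 18 (-0.31 ± 0.09), were not called, and their samples overlapped hepatocytes. Without clone-1 the differences were -6.47 for Ugt2b1, -7.22 for Ugt3a2, -0.27 for Ugt2b34, -0.88 for Ugt1a1, 0.10 for Ugt1a6a and -0.65 for Ugt1a6b.

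Of the 36 members at 10 FPKM or more in hepatocytes (18 Gst, 13 Ugt and 5 Sult), 6 reached the hepatocyte mean in the IL6-iMHs of all 4 lines. They were Gstm2, Gstm3, Gstm5, Mgst3, Sult1a1 and Sult1d1, so 4 Gst, 2 Sult and 0 Ugt, and in the 3 lines other than clone-1 Gsto1 did so too. Below 10% in all 4 lines were 7, of which 5 were Ugt and 2 Sult, and below 1% in all 4 were Ugt3a1, Ugt3a2, Sult2a8 and Sult5a1. These members were taken for their level in hepatocytes. The same shares over all genes at 10 FPKM or more in hepatocytes were not computed, so the counts only describe the members. Ugt2b1 stood at 0.228% to 2.46% of hepatocytes, Ugt2a3 at 0.665% to 1.63%, Ugt2b5 at 2.62% to 11.2% and Ugt2b36 at 3.66% to 16.4%. On chromosome 5, the genes Sult1d1, far above hepatocytes, and Ugt2b1, far below, thus lie in the same group of neighbours.

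**Figure D3:**
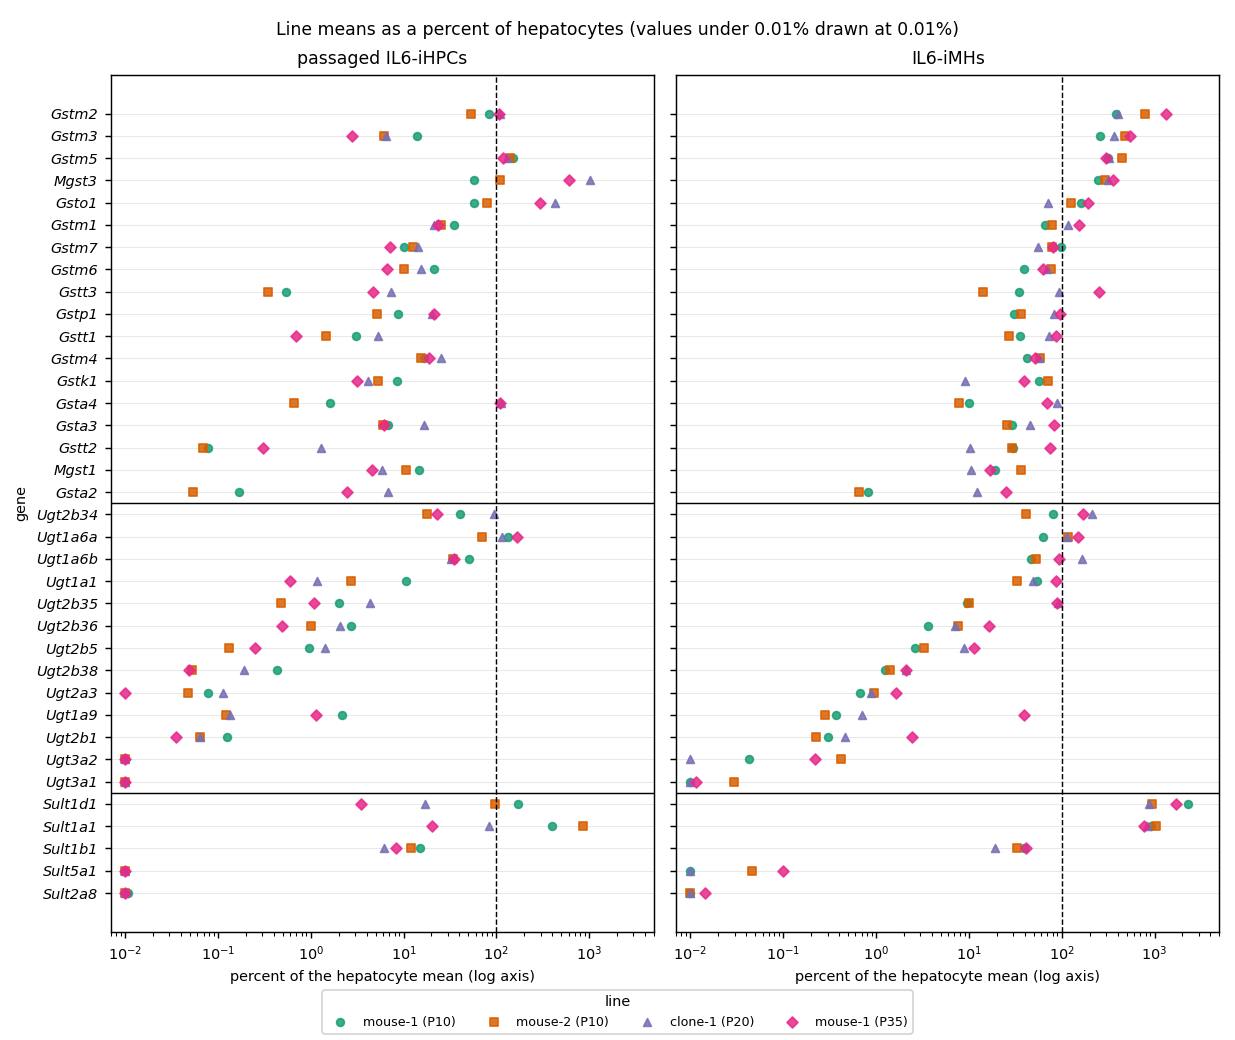
Mean of each line as a percent of the hepatocyte mean (log axis, dashed line at 100%) for the 36 members at 10 FPKM or more in hepatocytes, in passaged IL6-iHPCs (left) and IL6-iMHs (right), with 1 symbol per line. In IL6-iMHs Gstm2, Gstm3, Gstm5, Mgst3, Sult1a1 and Sult1d1 lie right of the dashed line in all 4 lines, while Ugt2a3, Ugt2b1, Ugt2b38, Ugt3a1, Ugt3a2, Sult2a8 and Sult5a1 lie far to the left.

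The change on differentiation was not the same in the 4 lines for 42 of the 47 tested members (limma F test, Benjamini-Hochberg adjusted p-value under 0.05), where 96.3% of all genes tested differed, so this share is no feature of the members, and it was 41 without clone-1. The largest F was that of Ugt1a9, which rose by 2.72 ± 0.05 in mouse-1 (P35), to 7.15, 6.65 and 6.96 FPKM, and had log2 differences of -0.38, 0.04 and 0.14 in mouse-1 (P10), mouse-2 (P10) and clone-1 (P20). Sult1a1 rose by 5.20 ± 0.09 in mouse-1 (P35) and differed by 0.28 ± 0.09 in mouse-2 (P10), where it was already high. Gsto1 had opposite signs, at 1.48 in mouse-1 (P10) and -2.57 in clone-1 (P20).

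Genes around the conjugation step, taken from lists written from general knowledge, are given beside the shares of all genes, 53.9% higher and 12.1% lower at day 3 and 24.8% higher and 7.79% lower in IL6-iMHs, clone-1 included. Of 19 tested genes of cofactor supply (glutathione, UDP-glucuronic acid and PAPS), 4 were higher and 4 lower in IL6-iHPCs-D3 (P0), and 3 and 3 in IL6-iMHs, relative to hepatocytes. Slc7a11, the cystine importer (log2 difference 4.85 ± 0.13, limma adjusted p = 4e-24), and Gclc, the first enzyme of glutathione synthesis (4.14 ± 0.09, limma adjusted p = 1.1e-26), led at day 3, while Slc26a1, a sulfate carrier (-4.92 ± 0.11, limma adjusted p = 2e-26), and Cth, which supplies cysteine (-4.27 ± 0.08, limma adjusted p = 2.1e-28), were lowest. Of 19 other conjugation enzymes, such as methyl- and acetyltransferases, 11 were lower and 2 higher at day 3, and 11 lower and 1 higher in IL6-iMHs, with Nat8 (-4.56 ± 0.07) and Gnmt (-4.22 ± 0.10, limma adjusted p = 1.6e-25) lowest in IL6-iMHs. Of the targets of the stress factor NRF2 outside the 3 families, 10 of 19 were higher, a share close to that of all genes, and 1 was lower at day 3, led by Hmox1 (7.14 ± 0.09, limma adjusted p = 1.4e-32), and 9 were higher and 2 lower in IL6-iMHs.

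Of 20 regulators of these genes, 6 were higher and 6 lower at day 3, and 5 higher and 4 lower in IL6-iMHs. Of all genes 53.9% were higher and 12.1% lower at day 3, and 24.8% higher and 7.79% lower in IL6-iMHs. Nfe2l2, which encodes NRF2, rose by 5.24 ± 0.08 at day 3 (limma adjusted p = 5e-30) and was higher by 1.63 ± 0.07 in IL6-iMHs. Nr1i3, the nuclear receptor CAR that drives many conjugation genes, fell by 4.17 ± 0.09 at day 3 (limma adjusted p = 3.1e-27) and differed by -3.07 ± 0.07 in IL6-iMHs (limma adjusted p = 2.3e-26). Between the other comparisons of the cell table the regulators split as 6 higher and 7 lower at day 14, 5 and 5 in passaged IL6-iHPCs, and 3 and 2 in IL6-iMHs against IL6-iHPCs. The shares of all genes, higher and lower in the same order, were 50.0% and 12.9%, 48.1% and 11.3%, and 6.68% and 21.4%.

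In normal liver the families stood in the same order as in isolated hepatocytes. The Gst sum was 9973 ± 595 FPKM (SD, n = 3), the Ugt sum 2412 ± 466 and the Sult sum 764 ± 64.7, together 1.89% ± 0.21 of reads. Mgst1 led at 3728, 5051 and 3499 FPKM and Gstp1 followed at 2925, 2215 and 2584. The highest of the other families were Ugt2b5 at 707, 1025 and 589 FPKM, Ugt2b36 at 442, 583 and 398, and Sult2a8 at 554, 620 and 489. Whole liver holds several cell types, and in such samples fewer cells of a type and less RNA per cell cannot be told apart. The 16 members not tested here (Gsto2, Gstt4, Mgst2, Sult2a1, Sult2a2, Sult2a3, Sult2a5, Sult2b1, Sult3a1, Sult3a2, Sult4a1, Sult6b1, Ugt1a10, Ugt1a2, Ugt1a7c and Ugt8a) stayed below 1 FPKM, Gstt4 with no read.

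After partial hepatectomy the share of reads in members was 1.35% ± 0.12 at 6 h, 1.31% ± 0.23 at 24 h, 1.05% ± 0.49 at day 3, 1.87% ± 0.056 at day 7 and 1.51% ± 0.006 at day 14. The 5 comparisons with normal liver share the same 3 control samples. The summed hepatocyte markers ranged from 55887 to 60765 FPKM in normal liver, from 32465 to 36858 at 24 h and from 37559 to 70459 at day 3, and their part in the results was not tested.

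**Figure D4:**
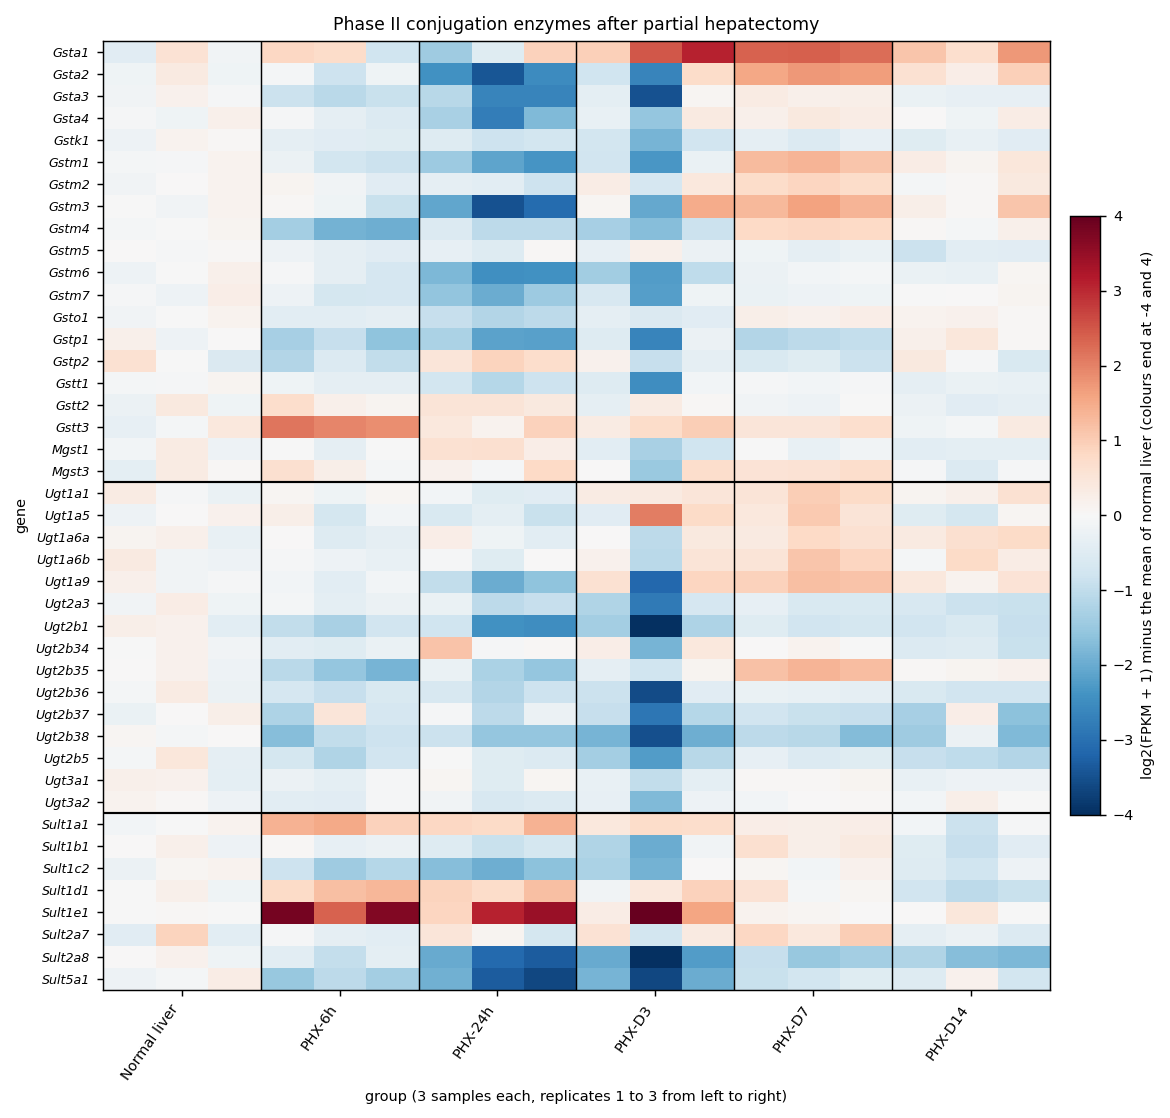
Log2 difference from the mean of normal liver for each of the 43 tested members (rows, by family) in the 18 liver samples (columns, 3 per group), with the colour scale ending at -4 and 4. Gst rows turn to lower values at 24 h and to higher values at day 7 for Gsta1, Gsta2 and Gstm1, and PHX-D3 replicate 2 stands out as low in many rows.

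At 6 h the members changed in both directions. Of the 43 tested members 4 were higher (Gstt3, Sult1a1, Sult1d1 and Sult1e1) and 6 lower (Gstm4, Gstp1, Ugt2b35, Ugt2b38, Sult1c2 and Sult5a1), beside 4.78% and 11.5% of all 11114 genes tested, 16.3% being changed. The members' median log2 difference was -0.34, against -0.28 for all genes, and the share called lower was close to that of all genes. The summed markers of neutrophils were 44.4 to 45.7 FPKM at 6 h against 1.78 to 7.18 in normal liver, those of Kupffer cells 97.4 to 193 against 261 to 399, those of cholangiocytes and progenitors 42.0 to 84.6 against 28.2 to 35, and those of hepatocytes 45325 to 52829 against 55887 to 60765, and their part was not tested. After quantile normalization, which brought the median of all genes to -0.04, 4 members were higher and 3 lower, beside 6.82% and 6.06% of all genes. Ugt2b38, Sult5a1 and Sult1c2 were then not called.

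Gstt3 had the clearest early rise. It read 17.6, 20.8 and 29.9 FPKM in normal liver and 102, 88.6 and 83.5 at 6 h (log2 difference 1.98 ± 0.23, limma adjusted p = 8.5e-06), and was back at 24.4 to 42.8 at 24 h. All PHX-6h samples lay above all others for this gene. Its theta-class neighbours Gstt1 and Gstt2 had log2 differences of -0.29 ± 0.39 and 0.34 ± 0.19 and were not called.

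In the Sult family 3 Sult1 genes rose at 6 h. Sult1a1 read 118, 126 and 142 FPKM in normal liver and 337, 371 and 244 at 6 h (1.28 ± 0.22, limma adjusted p = 0.00022). Sult1d1, on chromosome 5, went from 34.8 to 45.5 FPKM to 68.4 to 99.8 (1.10 ± 0.24, limma adjusted p = 0.0013), and was just under 2-fold, at 0.99, without PHX-6h replicate 3. Its neighbour Sult1e1 had 0 to 3 reads in normal liver and 369 to 1346 at 6 h, at 13.5, 4.23 and 12.1 FPKM (3.30 ± 0.86, limma adjusted p = 0.0049, and 0.053 by voom on the recovered reads). No sample overlapped between the groups for these 3 genes. Sult1b1, also in that group of neighbours, was not called (-0.17 ± 0.32).

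Gstm4 and Ugt2b35 were the firmest early losses. Gstm4 fell from 54.5, 56.5 and 61.4 FPKM to 21.9, 14.6 and 14.1 (-1.73 ± 0.20, limma adjusted p = 9.7e-06), and Ugt2b35 from 68.1, 76.6 and 58.7 to 31.7, 22.2 and 17.8 (-1.50 ± 0.29, limma adjusted p = 0.00052). The groups did not overlap. Gstp1 fell from 2215 to 2925 FPKM to 843 to 1335 (-1.29 ± 0.45, limma adjusted p = 0.025), and lost its call without normal liver replicate 1 or 3 or PHX-6h replicate 1 or 3 (limma adjusted p from 0.058 to 0.081). Ugt2b38 (-1.17 ± 0.43, limma adjusted p = 0.032) lost it without any 1 normal liver replicate or PHX-6h replicate 1, with adjusted p from 0.059 to 0.13. Sult5a1 (-1.31 ± 0.44, limma adjusted p = 0.022) lost it without normal liver replicate 3 or PHX-6h replicate 1 or 3, with adjusted p from 0.054 to 0.078, and Sult1c2 (-1.12 ± 0.33, limma adjusted p = 0.011) went under 2-fold, at -0.98, without PHX-6h replicate 2.

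At 24 h most of the members called lower were Gst genes. Of 43 tested members 13 were lower (9 of 20 Gst, 2 of 15 Ugt and 2 of 8 Sult) and 1 was higher, beside 4.16% and 3.74% of all genes, 7.90% being changed. With quantile normalization 11 were lower and 3 higher, beside 3.80% and 3.86% of all genes. Over the members the median was -0.69 on the log2 scale, and over all genes -0.02. The Gst genes were Gsta2, Gsta3, Gsta4, Gstm1, Gstm3, Gstm6, Gstm7, Gsto1 and Gstp1, and their differences ran from -2.88 to -1.05. Gsta3 (-2.13 ± 0.64, limma adjusted p = 0.019) lost its call without normal liver replicate 2 or 3 or PHX-24h replicate 2 or 3 (adjusted p from 0.051 to 0.077), and Gsto1 (-1.05 ± 0.10) went under 2-fold, at -0.99, without normal liver replicate 3 or PHX-24h replicate 2. Markers of cholangiocytes and progenitors summed to 39.5 to 202 FPKM at 24 h against 28.2 to 35 in normal liver, and their part was not tested.

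Among Gst genes, Gstm3 and Gsta2 had the largest log2 differences at 24 h. Gstm3 read 117, 107 and 130 FPKM in normal liver and 27.1, 9.71 and 13.0 at 24 h (-2.88 ± 0.61, limma adjusted p = 0.0027), and Gsta2 22.3, 32.6 and 22.2 against 3.90, 1.45 and 3.57 (-2.79 ± 0.56, limma adjusted p = 0.0018). Gstm6, at 93.5 to 123 FPKM against 18.7 to 30.0, had the smallest error of the large changes (-2.23 ± 0.26, limma adjusted p = 3.6e-05). Gsta4, which clears the lipid aldehyde 4-hydroxynonenal, went from 56.4 to 72.8 FPKM to 8.42 to 25.3 (-1.94 ± 0.39, limma adjusted p = 0.0017). Samples of these 4 genes did not overlap between the groups. Mgst1 was at 4884 to 6326 FPKM against 3499 to 5051 and was not called (0.51 ± 0.22, limma adjusted p = 0.086).

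Of the Sult genes, Sult5a1 fell and Sult1e1 stayed up at 24 h. Sult5a1 read 17.5, 19.1 and 25.3 FPKM in normal liver and 4.59, 1.15 and 0.700 at 24 h (-2.97 ± 0.44, limma adjusted p = 0.00026), and Sult1c2 2.57 to 3.64 against 0.0862 to 0.334 (-1.76 ± 0.33, limma adjusted p = 0.0012). Sult1e1 read 0.823, 7.62 and 10.1 FPKM (2.46 ± 0.86, limma adjusted p = 0.038), and lost its call without any 1 normal liver replicate or PHX-24h replicate 2 or 3 (adjusted p from 0.078 to 0.15). Ugt2b38 (-1.31 ± 0.43, limma adjusted p = 0.028) lost it without the same libraries (0.055 to 0.093), and Ugt2b35 (-1.02 ± 0.29, limma adjusted p = 0.013) was under 2-fold without normal liver replicate 2 or PHX-24h replicate 2 or 3, at -0.93 to -0.76. Sult2a8 read 137, 63.4 and 53.7 FPKM against 489 to 620, with a log2 difference of -2.81 ± 1.12 that did not pass (limma adjusted p = 0.066). With PHX-D3 replicate 2 left out of the fit, 17 members were called at 24 h, beside 8.78% of all genes. The additional members were Sult2a8, Ugt1a9 and Ugt2b1.

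**Figure D5:**
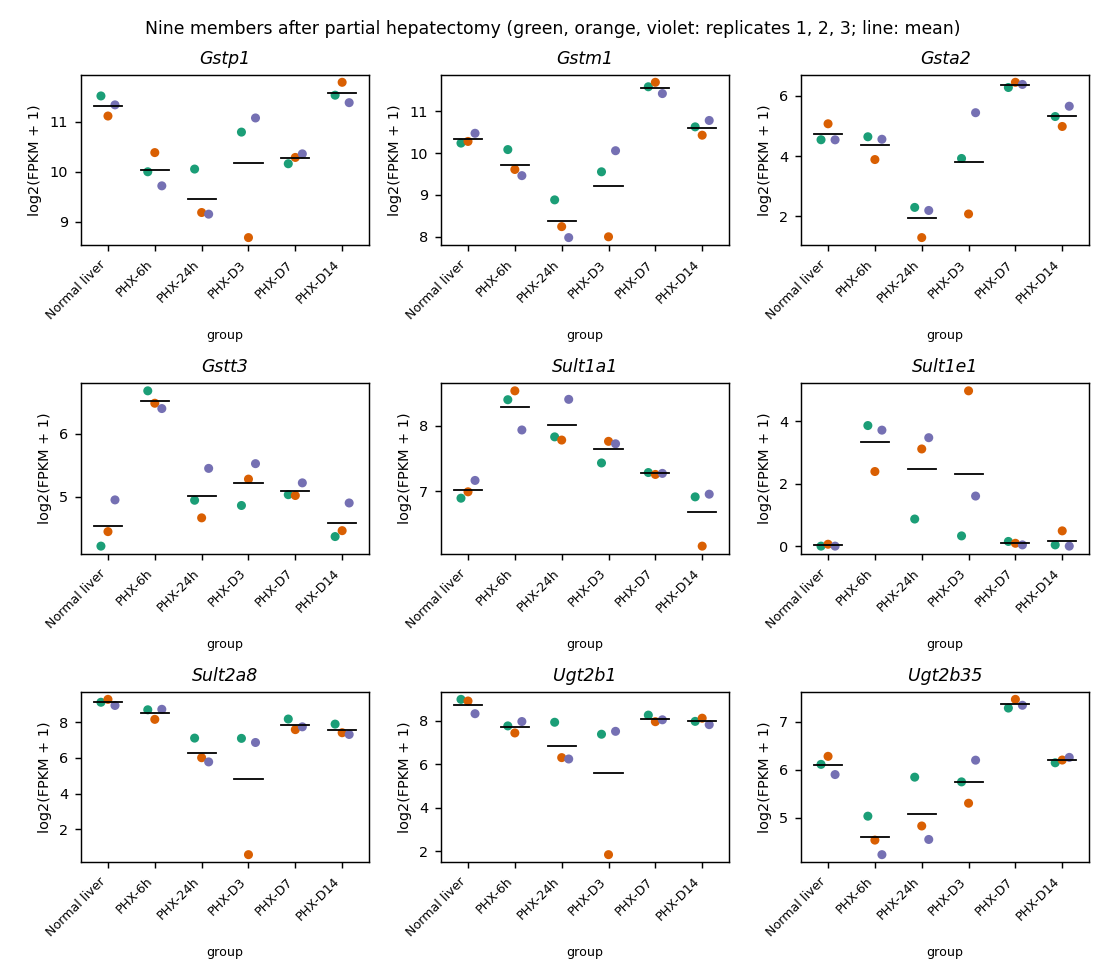
Level of 9 members as log2(FPKM + 1) in normal liver and after partial hepatectomy (points, 3 samples per group coloured by replicate number; line, mean). Gstt3, Sult1a1 and Sult1e1 are highest at 6 h or in single later samples, Gstp1, Gstm1 and Gsta2 are low at 24 h, and PHX-D3 replicate 2 is the lowest of its group for Sult2a8 and Ugt2b1.

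At day 3 the count depended on replicate 2 and on the samples fitted. With all samples 15 of 43 tested members were lower (5 Gst, 6 Ugt and 4 Sult) and 1 was higher, beside 2.49% and 3.33% of all genes, 5.82% being changed. Without PHX-D3 replicate 2, 7 were lower and 1 higher, with 4.16% of all genes changed, and Gstk1, Gstm1, Gstm7, Sult1b1, Sult1c2, Ugt2a3, Ugt2b36 and Ugt2b37 were no longer called. The count was 9 without normal liver replicate 2 and 10 without normal liver replicate 3. With only the 2 groups compared in the fit, the count of 16 became 4, and 3 of the named calls were lost. The members' median log2 difference was -0.57 with replicate 2 and -0.26 without it.

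The losses that remained without replicate 2 were mostly in Sult2a8, Sult5a1 and the Ugt2b genes. Sult2a8 read 136, 0.491 and 115 FPKM at day 3 against 554, 620 and 489 in normal liver, so that replicate 2 held 60 reads and the others 12890 and 21537 (-4.27 ± 1.12, limma adjusted p = 0.012, and -2.13 without replicate 2). Sult5a1 read 4.87, 0.717 and 4.45 FPKM (-2.49 ± 0.44, limma adjusted p = 0.0012, and -1.92 without replicate 2). Ugt2b1 read 165, 2.58 and 181 FPKM against 503, 478 and 318 (-3.16 ± 1.01, limma adjusted p = 0.029, and -1.29 without replicate 2), and lost its call without any 1 normal liver replicate, with adjusted p from 0.059 to 0.079. All PHX-D3 samples lay below all normal liver samples for these genes. Ugt2b38 read 13.6, 3.58 and 12.5 FPKM against 48.2 to 54.2 (-2.44 ± 0.43, limma adjusted p = 0.0011, and -1.90 without replicate 2).

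In the Gst family at day 3, Gstm6 read 40, 22.2 and 52.2 FPKM (-1.55 ± 0.26, limma adjusted p = 0.00071) and Gstm4 22.2, 17.0 and 31.4 (-1.29 ± 0.20, limma adjusted p = 0.0005). Both stayed below normal liver in every sample, at -1.21 and -1.09 without replicate 2. The 1 member that rose was Gsta1, an alpha-class enzyme, from 1.85, 4.79 and 2.55 FPKM to 6.53, 20.5 and 31.5 (2.16 ± 0.59, limma adjusted p = 0.014, and 2.01 without replicate 2). Gstm3 and Gsta2, low at 24 h, spread at day 3 over 28.0 to 332 and 3.21 to 42.4 FPKM, with replicate 2 the lowest, and were not called. Sult1e1 read 0.254, 30.3 and 2.03 FPKM, replicate 2 being the highest, and was not called either (2.28 ± 0.86, limma adjusted p = 0.058).

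At day 7 several Gst genes stood above normal liver. Of 43 tested members 4 were higher (Gsta1, Gsta2, Gstm1 and Ugt2b35) and 1 was lower (Ugt2b38), beside 7.81% and 1.03% of all genes, 8.84% being changed. The share of members that rose was close to that of all genes, and the median log2 difference was 0.07 for members and 0.13 for all genes. The total of 5 became 2 without normal liver replicate 1 or PHX-D7 replicate 1 or 2, and 3 without any other library of the 2 groups. It became 9 without PHX-D3 replicate 2, with Gstm3, Gstp1, Sult2a8 and Ugt1a9 added, beside 9.30% of all genes.

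Gsta1 read 19.0, 19.2 and 17.1 FPKM at day 7 against 1.85 to 4.79 in normal liver (2.32 ± 0.59, limma adjusted p = 0.0079), and Ugt2b35 155, 176 and 161 against 58.7 to 76.6 (1.27 ± 0.29, limma adjusted p = 0.0035). Gsta2 read 76.5, 86.3 and 82.1 FPKM against 22.2 to 32.6 (1.65 ± 0.56, limma adjusted p = 0.036), and Gstm1 3084, 3322 and 2754 against 1209 to 1424 (1.24 ± 0.38, limma adjusted p = 0.023). The PHX-D7 samples did not overlap normal liver for these genes, and those of Gsta2, Gstm1 and Ugt2b35 lay above the samples of all other times. The Gstm1 call was lost without normal liver replicate 1 or 2 or PHX-D7 replicate 1 or 2, with adjusted p from 0.062 to 0.069. The Gsta2 call was lost without any 1 library of the 2 groups, with adjusted p from 0.055 to 0.098, as was that of Ugt2b38 (-1.29 ± 0.43, limma adjusted p = 0.033, and 0.053 to 0.12 without 1 library). Kupffer cell markers summed to 1438 to 2090 FPKM at day 7 against 261 to 399 in normal liver, a level that moved with the group and whose part was not tested.

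Sult3a1, which was too low to be tested, had reads in all PHX-D7 samples, at 0.897, 0.566 and 0.809 FPKM. It was listed at 0 in 14 of the other 15 liver samples and at 0.0142 FPKM in PHX-6h replicate 2. The gene was singled out after its values were seen.

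At day 14 Ugt2b5 was the 1 member called, at 401, 372 and 336 FPKM against 707, 1025 and 589 (-1.03 ± 0.26, limma adjusted p = 0.015), beside 2.00% of all genes lower, 0.981% higher and 2.98% changed. It was not called without normal liver replicate 2 or PHX-D14 replicate 3, at -0.81 and -0.96. With PHX-D3 replicate 2 left out of the fit 3 members were called, all lower, with Sult2a8 and Ugt2b38 added, beside 3.48% of all genes. Without PHX-D14 replicate 2 the count was 2. Gsta2 (30.6 to 49.3 FPKM), Gstm1 (1379 to 1762) and Gstp1 (2666 to 3533) lay within 0.60 of normal liver on the log2 scale. Sult2a8 read 237, 169 and 158 FPKM against 489 to 620, with no overlap, and was not called with all samples (-1.57 ± 1.12, limma adjusted p = 0.38), and the Sult sum was 342 ± 58.9 FPKM against 764 ± 64.7.

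In the liver the genes around the conjugation step are given beside the shares of all genes, 4.78% higher and 11.5% lower at 6 h, 3.74% and 4.16% at 24 h, 3.33% and 2.49% at day 3 and 7.81% and 1.03% at day 7. Of 18 tested genes of cofactor supply 0 were higher and 5 lower at 6 h, with Slc26a1 lowest (-2.10 ± 0.54, limma adjusted p = 0.0047), 1 was lower at 24 h and 2 at day 3, and at day 7 Ugdh, which makes UDP-glucuronic acid, was higher (1.32 ± 0.24, limma adjusted p = 0.00077) and Cbs lower. Of 21 other conjugation enzymes, Nnmt, which methylates nicotinamide, was higher at 6 h (2.71 ± 0.22, limma adjusted p = 6.2e-07) and at 24 h (2.73 ± 0.22, limma adjusted p = 2.1e-06), while Inmt (-4.71 ± 1.39, limma adjusted p = 0.017) and Gnmt (-2.0 ± 0.29, limma adjusted p = 0.0002) were lower at 24 h. Of 18 NRF2 targets outside the 3 families, 5 were higher and 0 lower at day 7, led by Cbr3 (2.89 ± 0.38, limma adjusted p = 3.5e-05) and Nqo1 (2.35 ± 0.28, limma adjusted p = 1.5e-05), and 2 were higher and 2 lower at 6 h. Of 19 regulators 6 were lower at 6 h, with Cebpa lowest (-2.37 ± 0.35, limma adjusted p = 6.6e-05), and 0 were higher.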

How the data were processed

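RNA of 33 cell samples and 18 liver samples was extracted with Trizol, and mRNA was sequenced as paired-end Illumina reads. The submitters' processing notes name TopHat 1.4.1, Cufflinks 1.3.0 and the mm10 build. The authors deposited FPKM values per gene, already scaled to length and depth, and the strand setting of the counting is not given in the sources used here.

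FPKM was used as deposited. Tests ran in limma 3.58.1 (R 4.3.3) with an intensity trend on log2(FPKM + 1), all groups of a table in 1 fit, leaving out genes with 1 FPKM in fewer than 3 samples, and p-values were adjusted by Benjamini-Hochberg across every gene of the fit. A change needed an adjusted p under 0.05 and 2-fold. Whole reads were recovered from the FPKM steps for 18111 of 18830 genes above 0 in cells and 16712 of 17331 in liver (tolerance 0.02 reads), and depths built on them hold up to a common factor. Zero groups were set to a floor of 3 reads per library, and floors cover counting error only. Python 3.11.15 with numpy 2.4.6, pandas 2.3.3 and matplotlib 3.10.9 did the rest. Scripts were tested on simulated data.

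The members and lists were chosen with earlier results of these data known. Named with a test, per comparison and family, were the 2 members with the highest and the 2 with the lowest log2 difference past the threshold, besides the 2 highest in level in hepatocytes, normal liver, passaged IL6-iHPCs and IL6-iMHs, the 3 with the largest F among lines, and per list the 2 highest and 2 lowest genes. Other members are named where a count, a level or the text singles them out, which was done after their values were seen. Promoters and positions come from RefSeq and GRCm38.p6. Alternatives were another pseudocount, filter or fold, quantile normalization, voom on recovered reads, fits of only the groups compared, a replicate block, and leaving out each library or the clone-1 line; leaving PHX-D3 replicate 2 out of the fits of the other times was added after seeing the data. A further deposited table of day 7 cultures, whose last line is cut off, was used for 4 members only. Proteins were not analysed here.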

Additional observations from a re-analysis of the deposited data

Results flagged for a closer look

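The change on differentiation differed among the 4 lines for 42 of the 47 tested members by limma's F test, beside 96.3% of all genes, and 3 members had the largest F. They were Ugt1a9 (F = 710), with a rise of 2.72 ± 0.05 on the log2 scale in mouse-1 (P35) and between -0.38 and 0.14 elsewhere, Sult1a1 (F = 605), with 0.28 ± 0.09 in mouse-2 (P10) up to 5.20 ± 0.09 in mouse-1 (P35), and Gsto1 (F = 368), with 1.48 ± 0.09 in mouse-1 (P10) down to -2.57 ± 0.09 in clone-1 (P20). The samples behind each line are technical repeats, and the clone-1 values compare libraries that differ in Y-linked reads.

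A separate table of day 7 cultures, which no comparison above uses, listed 4 members. Gsto2 averaged 0.832 FPKM in IL6-iHPCs-D7 (P0), at 0.584, 1.10 and 0.814, against 0 to 0.0682 in primary hepatocytes and 0.702 to 1.16 in HCM-Hepa-D7 (P0), the culture without IL6. Ugt1a7c averaged 0.793 FPKM in IL6-iHPCs-D7 (P0), at 0.801, 0.678 and 0.9, against 0.0122 to 0.110 in primary hepatocytes and 0.622 to 0.890 in HCM-Hepa-D7 (P0). Gsto2 and Ugt1a7c lay above primary hepatocytes in all cultured samples, and the 2 kinds of culture overlapped. Gstm1 read 919, 943 and 912 FPKM in primary hepatocytes, 256, 316 and 309 in HCM-Hepa-D7 (P0) and 178, 175 and 173 in IL6-iHPCs-D7 (P0), with no overlap among the 3 groups. Gstm3 read 26.9, 26.4 and 21.3 FPKM in primary hepatocytes, 0.426, 0.715 and 0.816 in HCM-Hepa-D7 (P0) and 0.419, 0.886 and 0.550 in IL6-iHPCs-D7 (P0), where the cultures overlapped. These differences were not tested.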

How the results depend on the processing

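Of 73 named values under 1307 alternatives, 1238 kept direction and side of the threshold, 69 lost the call and 0 reversed. Most of the lost calls were in the liver. No cell value lost its call with 1 library left out, but those libraries are technical repeats, and the named values were the largest past the threshold. The pooled count therefore overstates how firm the liver calls are. With 1 library left out, members changed numbered 37 to 37 in IL6-iHPCs-D3 (P0), 39 to 40 in IL6-iHPCs-D14 (P0), 39 to 39 in passaged IL6-iHPCs, 28 to 29 in IL6-iMHs against IL6-iHPCs, 30 to 31 in IL6-iMHs against hepatocytes, 7 to 11 in PHX-6h, 10 to 17 in PHX-24h, 8 to 21 in PHX-D3, 2 to 9 in PHX-D7 and 0 to 3 in PHX-D14, and those differing among lines 42 to 43. In PHX-D3 the count of 16 became 4 when only the 2 groups compared were fitted, which leaves fewer samples. In PHX-D7 the count of 5 became 9 in that fit, 8 at a 1.5-fold change, 3 with no filter on low values, and 9 without PHX-D3 replicate 2. In PHX-D14 the count of 1 became 4 with only the groups compared, 2 at 1.5-fold, and 3 without PHX-D3 replicate 2. The cause of these moves was not tested. The replicate block left every count as it was (37, 39, 39, 28, 31, 10, 14, 16, 5 and 1 in the order above). Same-numbered samples did not deviate together on average, with a mean correlation of -0.015 over 165 pairs of cell groups and -0.030 over 45 pairs of liver groups. Single pairs ran from -0.54 to 0.57 in cells, 33 being over 0.1, and from -0.30 to 0.39 in liver, 7 being over 0.1. A mean over all pairs cannot exclude pairing between particular groups.

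Technical repeats, 2 mice and 1 clone limit the cell results. Single library choices moved the liver counts at every time, from 7 to 11 at 6 h and from 10 to 17 at 24 h, and decided them from day 3 on. At 46887831 reads or more per sample, members below 0.1 FPKM rest on few reads. Near-identical copies can share reads, as can the Ugt1a genes through their common last exons.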
